A study of Mus musculus with 8 samples.

Results

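Galectins are small lectins that bind beta-galactosides, and in the gut epithelium they bridge glycoproteins and glycolipids at the cell surface and on internal membranes. The set described here was asked for as 8 mouse genes: Lgals1, Lgals2, Lgals3, Lgals4, Lgals6, Lgals8, Lgals9 and Lgals3bp, the last being a secreted glycoprotein that binds galectins and not a galectin itself. Members were found by matching the gene IDs of the deposited tables to these symbols, which gave 7 of 8 members among 37620 genes. No ID matched Lgals6, a close paralog of Lgals4 that is known to be present in some mouse strains and absent from others, so Lgals6 is not analysed here. The mouse strain is not given in the sources used here, and reads of any Lgals6 present may be part of the Lgals4 values below, which was not tested.

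RNA sequencing was done on cells sorted by flow cytometry from mouse small intestinal epithelium, to follow gene expression alongside hydroxymethylcytosine during intestinal differentiation. The 4 CD24Mid libraries (replicates 1, 3, 5 and 7, also termed CD24low) came from cells with intermediate surface CD24. The 4 CD24Neg libraries (replicates 2, 4, 6 and 8) came from cells without it. Cells positive for the leukocyte antigen CD45 or for the fucose-binding lectin of Ulex europaeus had been gated out of both groups, no other treatment or genotype is named, and age, sex and any pooling of animals are not given. The submitters describe the libraries as biological replicates, and what separates one replicate from another is not stated further, so p-values measure the spread between these samples.

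The labels were checked against marker lists. Cd24a, the sorted antigen, averaged 194 ± 43.4 CPM in CD24Mid against 28.6 ± 8.37 CPM in CD24Neg (SD, n = 4 each), where CPM is gene-unique counts scaled to a common library size with TMM factors. Summed markers of stem and dividing crypt cells ran from 3801 to 5281 CPM in CD24Mid against 149 to 493 CPM in CD24Neg, and summed enterocyte markers from 1125 to 1761 CPM in CD24Mid against 25522 to 41958 CPM in CD24Neg. Markers of other cells were also present. T and NK lymphocyte markers summed to 8.32 to 21.0 CPM in CD24Mid, and to 549, 31.6, 88.2 and 412 CPM in CD24Neg replicates 2, 4, 6 and 8, so replicates 2 and 8 stood apart. Ptprc, which encodes CD45, averaged 5.42 ± 2.89 CPM in CD24Mid against 18.0 ± 15.8 CPM in CD24Neg (SD, n = 4 each; edgeR adjusted p = 0.039), but the call was lost with upper-quartile scaling (edgeR adjusted p = 0.068), on unscaled totals (edgeR adjusted p = 0.30), without the filter on low counts, and on leaving out 5 of the 8 libraries singly. The log2 fold change was -1.72 with all libraries, -0.97 without CD24Neg replicate 8, and -0.073 (edgeR adjusted p = 0.92) without both CD24Neg replicates 2 and 8. B and plasma cell markers summed to 397 to 1015 CPM in CD24Mid and 23.7 to 55.0 CPM in CD24Neg, goblet markers to 3111 to 4468 CPM in CD24Mid and 9441 to 26470 CPM in CD24Neg, and enteroendocrine markers to 264 to 582 CPM in CD24Mid and 79.0 to 120 CPM in CD24Neg. Their part in the galectin values was not tested. Libraries held 11340782 to 18928233 gene-unique reads, of which mitochondrially encoded genes took 8.60% ± 0.55 in CD24Mid and 32.0% ± 4.71 in CD24Neg (SD, n = 4 each). Each sum is from sorted bulk RNA, in which fewer cells of a type and less RNA per cell cannot be told apart.

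All galectins share a carbohydrate-recognition domain whose sugar-binding face carries a histidine, an asparagine-proline-arginine run, a tryptophan and a glutamate. Prototype galectins (Lgals1 and Lgals2) hold 1 such domain and pair up, the chimera galectin Lgals3 joins 1 domain to a long flexible tail, and tandem-repeat galectins (Lgals4, Lgals8 and Lgals9) hold 2 domains on 1 chain. The coding stretches from that histidine to that glutamate are shown because reads from this shared part could be confused between members. They come from GENCODE M21 transcripts on GRCm38, run 5′ to 3′ on the coding strand, and have the codons of the named residues in capitals.
Lgals1: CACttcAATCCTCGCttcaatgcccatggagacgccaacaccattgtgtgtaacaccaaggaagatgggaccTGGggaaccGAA
Lgals2: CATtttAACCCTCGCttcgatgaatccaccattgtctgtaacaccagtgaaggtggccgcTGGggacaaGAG
Lgals3: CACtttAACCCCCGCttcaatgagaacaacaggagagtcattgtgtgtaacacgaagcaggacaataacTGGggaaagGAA
Lgals4 domain 1: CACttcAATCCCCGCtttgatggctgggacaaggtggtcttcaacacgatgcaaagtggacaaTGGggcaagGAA
Lgals4 domain 2: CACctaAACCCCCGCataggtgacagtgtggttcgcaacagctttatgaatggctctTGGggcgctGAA
Lgals8 domain 1: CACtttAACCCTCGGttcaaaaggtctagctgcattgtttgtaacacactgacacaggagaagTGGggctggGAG
Lgals8 domain 2: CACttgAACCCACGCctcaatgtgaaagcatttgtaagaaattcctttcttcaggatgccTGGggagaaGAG
Lgals9 domain 1: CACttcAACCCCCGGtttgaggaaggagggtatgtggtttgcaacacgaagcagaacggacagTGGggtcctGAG
Lgals9 domain 2: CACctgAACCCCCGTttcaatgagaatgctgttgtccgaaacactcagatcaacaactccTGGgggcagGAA
No such stretch was found in the coding sequence of Lgals3bp. Among the 9 domain stretches, pairwise identity in 36 pairs ran from 48.15% to 69.33%, and the highest was between the first domains of Lgals4 and Lgals9. The longest run of identical bases between the coding sequences of any pair of members was 17 bases, between Lgals3 and Lgals8. Reads rebuilt from the deposited estimate, which includes shared reads, were 0.923 to 1.04 times the gene-unique reads of a member, and 0.991 to 0.995 times for Lgals4. The unit of the estimate was itself chosen to match the unique counts, so the general closeness to 1 is built in.

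Of the 7 members, 4 differed between the groups: Lgals2, a prototype galectin of the gut epithelium, was higher in CD24Mid, and Lgals4, Lgals3 and Lgals8 were higher in CD24Neg. The change was 9.20-fold for Lgals3, 2.84-fold for Lgals8, 2.26-fold for Lgals4 and 1.72-fold for Lgals2, while Lgals9, Lgals3bp and Lgals1 did not pass the test. All 7 members passed the filter on low counts. In TMM-scaled CPM the groups did not overlap in 4 of the 7, and these were the same 4 genes that passed. Over all 12840 genes tested, 69.8% passed at an edgeR adjusted p under 0.05, 35.5% higher in CD24Mid and 34.3% higher in CD24Neg, and 64.4% did not overlap. The 4 of 7 members called are thus not more than genes at large, and the median log2 fold change of the 7 members was -0.15, beside 0.015 for all genes. With CD24Neg replicates 2 and 8 left out, the same 4 members passed in the same directions.

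Scaling bears on these directions. TMM factors were 1.34 to 1.42 in the CD24Mid libraries against 0.697 to 0.757 in the CD24Neg libraries. Over all genes the median of the log2 fold changes was 0.015 with TMM, 0.24 after upper-quartile scaling and 0.96 on unscaled totals. Upper-quartile scaling called 70.9% of genes, 43.6% higher in CD24Mid and 27.3% higher in CD24Neg, and unscaled totals called 82.7%, 69.8% higher in CD24Mid and 12.9% higher in CD24Neg. A change of scaling moves all genes by nearly the same amount, so the distance of a member from that median is fixed by construction and is no sign of stability. With TMM that distance was 0.77 for Lgals2, -1.19 for Lgals4, -3.22 for Lgals3 and -1.52 for Lgals8. On unscaled totals Lgals4 itself was -0.24 and no longer passed (edgeR adjusted p = 0.17), and Lgals9, Lgals3bp and Lgals1 passed as higher in CD24Mid, at 0.79, 0.86 and 1.29. Upper-quartile scaling kept the same 4 calls. Overlap of the groups depends on scaling too. On the deposited estimate, not scaled between groups, Lgals4 overlapped. Lgals9 did not (439 to 570 in CD24Mid, 287 to 311 in CD24Neg), nor did Lgals3bp (189 to 279 in CD24Mid, 125 to 151 in CD24Neg).

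**Figure D1:**
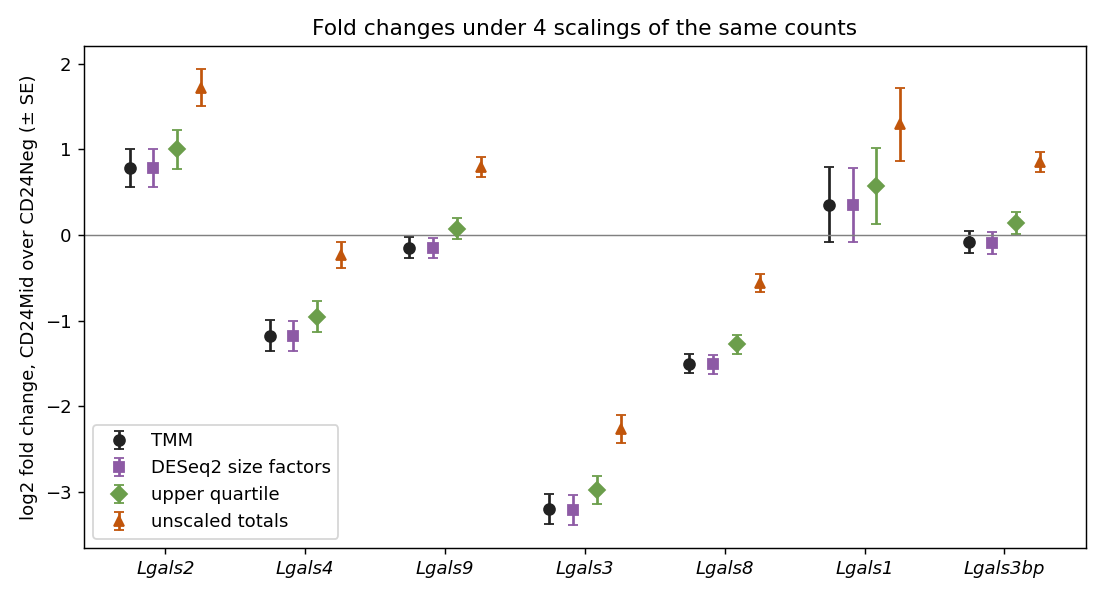
The log2 fold change of each member (CD24Mid over CD24Neg; points with bars of 1 SE, 4 libraries a group) is plotted under TMM, DESeq2 size factors, upper-quartile scaling and unscaled totals. Unscaled totals lift every member by a like amount: Lgals2, Lgals3, Lgals4 and Lgals8 keep their side of 0, while Lgals9 and Lgals3bp cross it under upper-quartile scaling and on unscaled totals.

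Lgals4 encodes galectin-4, a tandem-repeat galectin that binds sulfated glycolipids and clusters hydrolases of the enterocyte brush border in lipid rafts. It had 2146, 1744, 1549 and 1349 CPM in CD24Mid replicates 1, 3, 5 and 7, against 4544, 3471, 3685 and 3633 CPM in CD24Neg replicates 2, 4, 6 and 8. With TMM all CD24Neg libraries stood above all CD24Mid libraries. On the deposited estimate, not scaled between groups, they overlapped (1883 to 2831 in CD24Mid against 2617 to 3216 in CD24Neg). The means were 1697 ± 340 CPM in CD24Mid against 3834 ± 483 CPM in CD24Neg (SD, n = 4 each). The log2 fold change was -1.18 ± 0.18 (SE; edgeR adjusted p = 0.00015).

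Lgals2 encodes galectin-2, a prototype galectin that in mouse is found mainly in the gastrointestinal tract. In CD24Mid its libraries stood at 1434, 1465, 1065 and 952 CPM, against 919, 815, 468 and 655 CPM in CD24Neg, in the same replicate order as before. The groups came close, with the lowest CD24Mid library just above the highest CD24Neg library. Means were 1229 ± 259 CPM in CD24Mid against 714 ± 197 CPM in CD24Neg (SD, n = 4 each), with a log2 fold change of 0.78 ± 0.23 (SE; edgeR adjusted p = 0.0093). With TMM it was the least marked of the 4 calls. That place depends on scaling, since on unscaled totals Lgals2 stood at 1.72, against -0.56 for Lgals8 and -0.24 for Lgals4.

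Lgals3 encodes galectin-3, a chimera galectin that takes part in apical sorting of glycoproteins and gathers on broken endosomes and lysosomes. It showed the largest change of the 7 members, with 34.8, 21.99, 20.7 and 24.9 CPM in CD24Mid against 207, 260, 244 and 231 CPM in CD24Neg. The CD24Mid libraries were low throughout and lay far below the lowest CD24Neg library. Means were 25.6 ± 6.38 CPM in CD24Mid against 235 ± 22.5 CPM in CD24Neg (SD, n = 4 each), and the log2 fold change was -3.20 ± 0.17 (SE; edgeR adjusted p = 1.66e-07). The effective length that the authors' software gave Lgals3 also separated the groups, at 607 to 634 bases in CD24Mid and 559 to 579 bases in CD24Neg. That length weighs the gene's transcripts by their estimated share, and the deposited gene tables used here do not resolve the transcripts.

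Lgals8 encodes galectin-8, a tandem-repeat galectin that in human cells brings autophagy receptors to damaged vesicles. It had 40.5, 35.9, 35.8 and 39.3 CPM in CD24Mid against 93.6, 99.4, 120 and 116 CPM in CD24Neg. The CD24Mid values were tightly grouped and the CD24Neg values all lay above them. The means were 37.9 ± 2.40 CPM in CD24Mid against 107 ± 12.9 CPM in CD24Neg (SD, n = 4 each), and the log2 fold change was -1.50 ± 0.11 (SE; edgeR adjusted p = 7.79e-07).

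Lgals9 encodes galectin-9, a tandem-repeat galectin best known as a ligand of T cell receptors such as Tim-3. It had 544, 492, 411 and 530 CPM in CD24Mid against 590, 548, 515 and 538 CPM in CD24Neg. The ranges overlapped, with CD24Mid replicate 5 the lowest of all. The log2 fold change was -0.15 ± 0.12 (SE; edgeR adjusted p = 0.30), and it turned to 0.073 with upper-quartile scaling.

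Lgals3bp encodes the galectin-3-binding protein, a secreted scavenger-receptor family glycoprotein. It had 356, 262, 263 and 268 CPM in CD24Mid against 328, 300, 313 and 275 CPM in CD24Neg. The CD24Neg libraries lay inside the CD24Mid range, which was set by the single high value of replicate 1. The log2 fold change was -0.083 ± 0.13 (SE; edgeR adjusted p = 0.58), and it turned to 0.14 with upper-quartile scaling. Epcam, an adhesion protein of epithelial cells that the labels do not name in the sort, gave the same size of difference, -0.083 ± 0.13 (SE; edgeR adjusted p = 0.57), and turned to 0.14 likewise.

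Lgals1 encodes galectin-1, a prototype galectin typical of mesenchymal and immune cells. It rested on 45, 40, 26 and 35 reads in CD24Mid and on 20, 11, 7 and 9 reads in CD24Neg. In CPM these were 2.18, 1.86, 1.09 and 1.41 in CD24Mid against 2.53, 1.27, 0.508 and 0.994 in CD24Neg. The highest value of all was in CD24Neg replicate 2 and the other 3 of that group were below the CD24Mid median. The log2 fold change was 0.35 ± 0.44 (SE; edgeR adjusted p = 0.49), so no difference was called with TMM on these few reads. Without CD24Neg replicates 2 and 8 it was 0.96 (edgeR adjusted p = 0.10), and on unscaled totals it was 1.29 and passed (edgeR adjusted p = 0.016). Stromal and endothelial markers summed to 9.55 to 12.2 CPM in CD24Mid, and to 11.7, 2.78, 3.12 and 8.501 CPM in CD24Neg replicates 2, 4, 6 and 8. CD24Neg replicate 2 was the highest of its group for Lgals1, for these markers and for the lymphocyte markers. The other libraries did not keep that order. CD24Neg replicate 4 was the lowest of its group for both marker sums, but its Lgals1 (1.27 CPM) was above that of CD24Neg replicate 8 (0.994 CPM). Of the 9 markers on the list, 2 passed the filter. Vim, the intermediate filament vimentin of mesenchymal and many immune cells, made up most of the sum, at 9.36 ± 1.89 CPM in CD24Mid against 4.06 ± 3.23 CPM in CD24Neg (SD, n = 4 each; 2.37-fold higher in CD24Mid, edgeR adjusted p = 0.029). Pecam1, an endothelial marker, did not pass the test. Col1a2, Pdgfra and Des were at 0 in every CD24Mid library and had only 3, 1 and 3 reads in all of CD24Neg, so they show no difference. The part of such cells in the Lgals1 values was not tested.

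**Figure D2:**
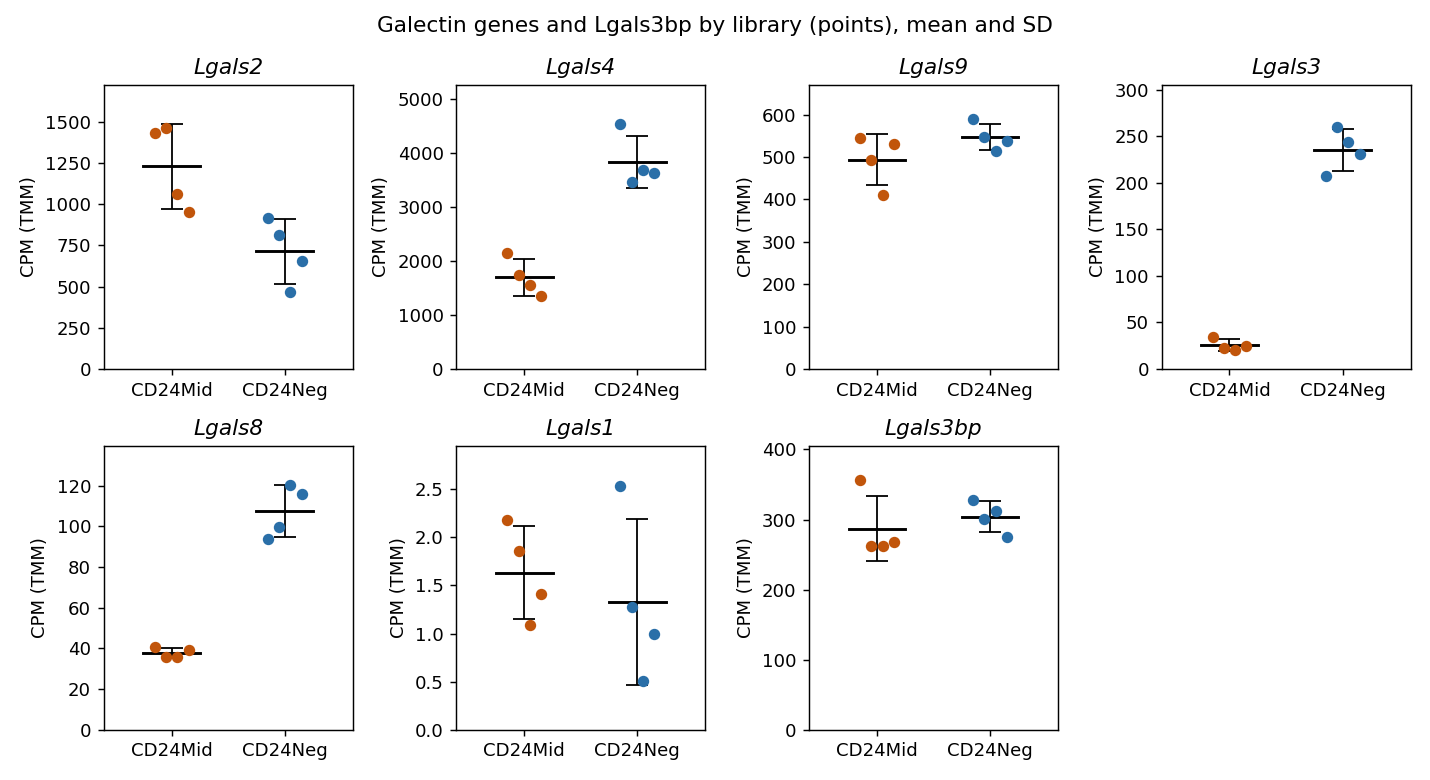
Each panel shows TMM-scaled CPM of 1 member in the 4 CD24Mid and 4 CD24Neg libraries (points), with the mean (bar) and SD (whiskers), on axes that start at 0. Lgals2 points are higher in CD24Mid, Lgals4, Lgals3 and Lgals8 points are higher in CD24Neg, and the groups overlap for Lgals9, Lgals1 and Lgals3bp.

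Levels of different members can be set side by side only per length. The deposited expression estimate was read as an FPKM-like level (fragments per kilobase of effective length and mapped library), and was divided by the TMM factor of the library. On that scale the order in CD24Mid was Lgals2 (2912 ± 596), Lgals4 (1663 ± 337), Lgals9 (371 ± 45.2), Lgals3bp (160 ± 34.3), Lgals3 (36.8 ± 9.85), Lgals8 (18.8 ± 1.34) and Lgals1 (2.60 ± 0.78; SD, n = 4 each). No neighbours in that order overlapped over the 4 libraries. In CD24Neg the order was Lgals4 (3901 ± 499), Lgals2 (1704 ± 452), Lgals9 (416 ± 20.9), Lgals3 (374 ± 34.6), Lgals3bp (196 ± 18.3), Lgals8 (55.4 ± 6.75) and Lgals1 (2.08 ± 1.40; SD, n = 4 each). Lgals9 and Lgals3 overlapped there and no other neighbours did. Lgals2 and Lgals4 thus changed places at the top, and Lgals3 stood below Lgals3bp in CD24Mid and above it in CD24Neg. Among all genes tested, Lgals2 ranked 12 of 12839 by mean estimate in CD24Mid and 54 of 12838 in CD24Neg, Lgals4 ranked 36 in CD24Mid and 27 in CD24Neg, and Lgals3 ranked 2244 in CD24Mid and 301 in CD24Neg.

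The make-up of galectin mRNA within a library does not depend on how libraries are scaled. Of the summed level per length of the 6 galectins found, Lgals2 made up 58.0% ± 2.71 in CD24Mid and 26.2% ± 4.72 in CD24Neg, and Lgals4 33.2% ± 2.14 in CD24Mid and 60.6% ± 4.17 in CD24Neg (SD, n = 4 each). Single libraries gave 56.8%, 62.0%, 57.4% and 56.0% Lgals2 in CD24Mid against 28.7%, 30.7%, 19.9% and 25.4% in CD24Neg. Every CD24Mid library held more Lgals2 than Lgals4 and every CD24Neg library the reverse. Lgals3 made up 0.740% ± 0.153 in CD24Mid and 5.89% ± 1.08 in CD24Neg, Lgals9 7.57% ± 1.55 in CD24Mid and 6.49% ± 0.451 in CD24Neg, and Lgals8 0.387% ± 0.0834 in CD24Mid and 0.876% ± 0.195 in CD24Neg (SD, n = 4 each). Lgals1 stayed between 0.0136% and 0.0583% in all 8 libraries. The sum itself was 6914 ± 1075 in CD24Mid and 4647 ± 502 in CD24Neg on the deposited scale, but 5005 ± 918 in CD24Mid and 6452 ± 814 in CD24Neg after TMM scaling (SD, n = 4 each), so no direction is given for it.

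**Figure D3:**
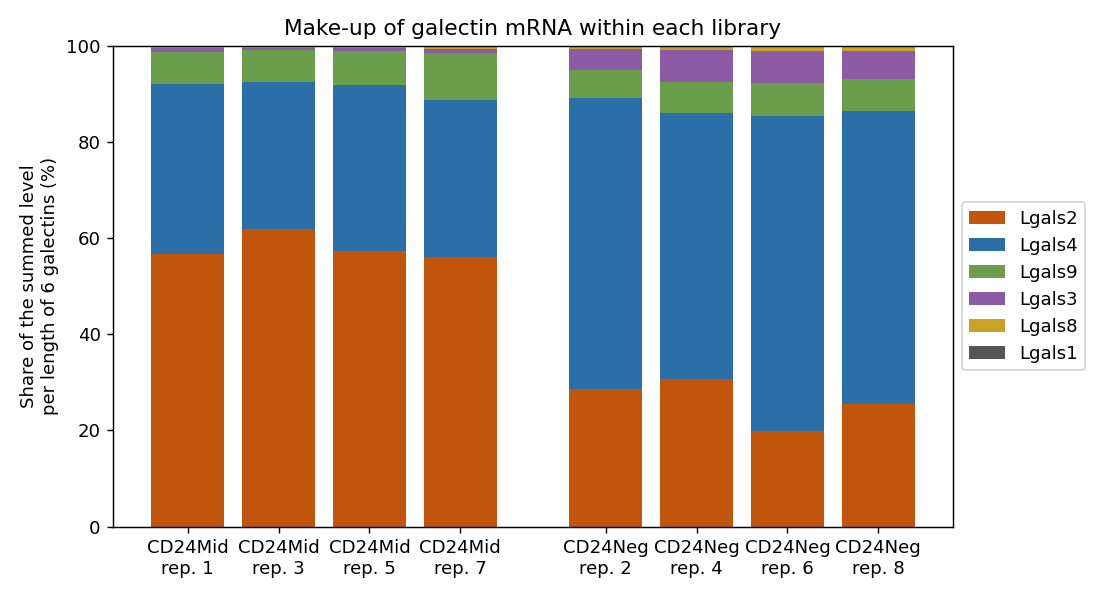
Stacked bars give the percentage of the summed level per length (deposited estimate) that each of 6 galectins made up in each of the 8 libraries. Lgals2 holds 56.0% to 62.0% of the CD24Mid bars and 19.9% to 30.7% of the CD24Neg bars, and the Lgals3 slice is 0.561% to 0.886% in CD24Mid and 4.34% to 6.68% in CD24Neg.

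Each of the other 6 members was also set against Lgals4 within each library, as a log2 ratio of deposited estimates. These ratios were added after the data were seen. The mean ratio of Lgals2 to Lgals4 was 175% in CD24Mid and 42.7% in CD24Neg, a 4.09-fold difference (log2 difference 2.03). The ratio of Lgals3 to Lgals4 was 2.19% in CD24Mid and 9.60% in CD24Neg, a 4.38-fold difference in the other direction (log2 difference -2.13). Lgals9, Lgals3bp and Lgals1 were higher relative to Lgals4 in CD24Mid, with log2 differences of 1.07, 0.93 and 1.76. For these 5 ratios the groups did not overlap, and an exact two-sided permutation test gave p = 0.0286, the smallest possible with 4 against 4 (0.0343 adjusted over the 6 ratios). Lgals4 itself changed by a log2 fold change of -1.18 with TMM, and every ratio carries that change. Lgals9, Lgals3bp and Lgals1 were not called themselves, so their ratios are not separate findings. The Lgals1 ratio also rests on 7 to 20 reads a library in CD24Neg. Lgals8 relative to Lgals4 was 1.15% in CD24Mid and 1.42% in CD24Neg, and these overlapped (log2 difference -0.31; exact permutation p = 0.229). Lgals3 and Lgals4 were both called higher in CD24Neg with TMM, and their ratio shows that the changes were unequal. The ratio gives no direction for either gene alone, and Lgals4 was not called on unscaled totals.

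The 250 bases upstream of the annotated starts are shown for the pair that changed places, Lgals2 and Lgals4, and for Lgals3, the member with the largest change. They are from RefSeq on GRCm38.p6, whose table held 6 of the 7 members, and run 5′ to 3′ on the gene's strand. The windows are chr15:78855530-78855779 on the minus strand for Lgals2, chr7:28833544-28833793 on the plus strand for Lgals4 and chr14:47373610-47373859 on the plus strand for Lgals3. Capitals mark matches to a GATA element (AGATAA), a single repeat unit of the HNF4 element (CAAAGTCC; the full element with its paired unit was not sought) and a CDX element (TTTATGG), sought on both strands; these are binding motifs of factors known to act in the intestinal epithelium, and they were chosen after the Lgals2 window had been read.
Lgals2 upstream window: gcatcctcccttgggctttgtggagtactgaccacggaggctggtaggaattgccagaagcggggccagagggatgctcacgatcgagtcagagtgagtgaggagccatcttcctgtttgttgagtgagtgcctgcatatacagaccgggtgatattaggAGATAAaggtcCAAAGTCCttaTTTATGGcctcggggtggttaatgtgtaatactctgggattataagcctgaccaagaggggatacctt
Lgals4 upstream window: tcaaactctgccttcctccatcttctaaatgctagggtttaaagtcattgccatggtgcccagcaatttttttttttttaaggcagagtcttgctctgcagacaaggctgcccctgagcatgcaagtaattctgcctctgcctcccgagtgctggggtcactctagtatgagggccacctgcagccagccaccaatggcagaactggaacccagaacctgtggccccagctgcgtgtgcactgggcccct
Lgals3 upstream window: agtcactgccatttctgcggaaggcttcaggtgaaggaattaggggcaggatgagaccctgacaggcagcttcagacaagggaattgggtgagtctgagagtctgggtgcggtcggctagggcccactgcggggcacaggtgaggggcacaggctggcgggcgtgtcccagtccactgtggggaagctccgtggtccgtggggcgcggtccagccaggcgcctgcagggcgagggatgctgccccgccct
The Lgals2 window held all 3 motifs, starting 90, 79 and 68 bases before the start and not overlapping each other. None of the other 5 windows held any of the 3. Of 32851 promoter windows of the same length, 9.988% held the GATA element, 1.196% the HNF4 repeat unit and 2.426% the CDX element. Because the motifs were chosen from the Lgals2 window, its holding all 3 was fixed in advance. These shares therefore do not measure how unusual that window is, and the comparison with the other 5 windows is no test. The windows of Lgals2, Lgals4 and Lgals3 had a GC content of 50.8%, 53.6% and 66%, against a median of 52.4% over all windows. A match of letters is a description of the window and was not tied to binding here.

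Other genes with a galectin domain were also looked up, and 2 of the 4 passed the filter. Lgals12, which in mouse is best known from fat cells, where it restrains lipolysis, averaged 14.99 ± 2.04 CPM in CD24Mid against 2.40 ± 0.764 CPM in CD24Neg (SD, n = 4 each). Its libraries stood at 13.0, 17.1, 16.4 and 13.5 CPM in CD24Mid against 2.15, 2.43, 1.598 and 3.42 CPM in CD24Neg, without overlap. The change was 6.33-fold (log2 fold change 2.66 ± 0.22 SE; edgeR adjusted p = 1.73e-06), larger than that of Lgals2. Lgalsl, a galectin-like protein, averaged 22.3 ± 3.75 CPM in CD24Mid against 27.6 ± 4.45 CPM in CD24Neg and did not pass (edgeR adjusted p = 0.094). Lgals7 had 1 read in all of CD24Mid against 2 reads in all of CD24Neg. Grifin, a lens galectin, had none in any library, which allows up to 0.121 to 0.145 CPM in CD24Mid and 0.218 to 0.380 CPM in CD24Neg (3 reads a library, counting error only).

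Galectins bind N-acetyllactosamine on branched N-glycans, and of 14 enzymes that build or cap it, the level was higher in CD24Mid for 4 and in CD24Neg for 9, and 1 did not pass, with a median log2 fold change of -0.78. After upper-quartile scaling these numbers were 4 and 7, and on unscaled totals 6 and 4, so the list has no direction that holds under every scaling. Over all 12840 genes tested, 35.5% were called higher in CD24Mid and 34.3% higher in CD24Neg with TMM. On unscaled totals these shares were 69.8% and 12.9%. They are the background for this list and for those that follow. St6gal1, which caps galactose with sialic acid in a linkage that most galectins bind poorly, was 14.0-fold higher in CD24Mid (6.94 ± 1.80 CPM in CD24Mid against 0.502 ± 0.279 CPM in CD24Neg; edgeR adjusted p = 3.86e-06). St3gal4, which adds sialic acid in another linkage, was the reverse, at 260 ± 137 CPM in CD24Mid against 1954 ± 259 CPM in CD24Neg (7.51-fold; edgeR adjusted p = 1.08e-05). The branching enzyme Mgat4b was 1.42-fold higher in CD24Mid and its relative Mgat4c 6.79-fold higher in CD24Neg, with edgeR adjusted p-values of 0.0097 and 5.87e-05. These 4 genes kept their direction and call on unscaled totals.

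All 6 brush border hydrolases listed as partners of galectin-4 rafts were higher in CD24Neg, with a median log2 fold change of -3.45, and all 6 passed under every scaling. Lactase (Lct) differed most, with 24.8 ± 5.64 CPM in CD24Mid against 2674 ± 1008 CPM in CD24Neg (108-fold; edgeR adjusted p = 1.35e-07). Aminopeptidase N (Anpep) had 278 ± 114 CPM in CD24Mid against 5606 ± 1075 CPM in CD24Neg (20.2-fold). Intestinal alkaline phosphatase (Alpi), sucrase-isomaltase (Sis), dipeptidyl peptidase Dpp4 and maltase-glucoamylase (Mgam) were 14.8-fold, 8.11-fold, 5.46-fold and 3.32-fold higher in CD24Neg. Each fold was above the 2.26-fold of Lgals4; the difference between them was not tested. Alpi and Lct are also on the enterocyte marker list, so these counts are not separate from the check of the labels.

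Sulfatide, the sulfated glycolipid bound by galectin-4, is made by Gal3st1 among others, and 5 of 10 genes of its synthesis and of raft sorting passed the filter. The level was higher in CD24Mid for 1 and in CD24Neg for 3, and 1 did not pass; on unscaled totals these numbers were 2 and 1. The sulfotransferase Gal3st1 had 22.2 ± 6.26 CPM in CD24Mid against 64.2 ± 6.004 CPM in CD24Neg (2.89-fold; edgeR adjusted p = 1.92e-05), and stayed higher in CD24Neg on unscaled totals. Cers2, which makes ceramides with very long acyl chains, was 2.17-fold higher in CD24Neg. The raft scaffolds split, with Flot2 3.95-fold higher in CD24Mid and Flot1 2.03-fold higher in CD24Neg, with edgeR adjusted p-values of 0.00015 and 0.00029. Cers2 and Flot1 lost the call on unscaled totals, at log2 fold changes of -0.18 and -0.081. Ugt8a, Cers3, Fa2h, Mal and Cav1 did not pass the filter and are named after their values were seen. Ugt8a, a gene of sulfatide synthesis like Gal3st1, had 1 read in all of CD24Mid and 1 in all of CD24Neg. Fa2h had 19 and 4 reads and Cers3 had 7 and 2 reads, in the same order. Sulfatide itself was not measured.

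Of 17 cell surface and lysosomal glycoproteins listed as galectin ligands, 15 passed the filter, 5 were higher in CD24Mid and 7 in CD24Neg, with a median log2 fold change of 0.075. After upper-quartile scaling these numbers were 7 and 7, and on unscaled totals 9 and 2. Over all genes tested, 35.5% were higher in CD24Mid and 34.3% higher in CD24Neg with TMM, and no direction is given for this list. The hyaluronan receptor Cd44 had 70.7 ± 12.1 CPM in CD24Mid against 5.44 ± 2.19 CPM in CD24Neg (13.2-fold; edgeR adjusted p = 4.83e-07), and the fibronectin receptor subunit Itga5 was 5.55-fold higher in CD24Mid. The laminin receptor subunit Itga3 was 3.01-fold and the transmembrane mucin Muc13 2.47-fold higher in CD24Neg. Muc13 was no longer called on unscaled totals (edgeR adjusted p = 0.064).

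Galectins on damaged vesicles work with autophagy receptors and other proteins. The list used held 10 such partners, not all of them receptors. Of these, 0 passed as higher in CD24Mid and 9 as higher in CD24Neg, and 1 did not pass, with a median log2 fold change of -0.79. With upper-quartile scaling 0 were higher in CD24Mid and 8 in CD24Neg, and on unscaled totals 2 and 1, so most of these calls rest on the scaling. The share of all genes called higher in CD24Neg was 34.3% with TMM and 12.9% on unscaled totals. The receptor optineurin (Optn) was called under every scaling and had 35.0 ± 4.62 CPM in CD24Mid against 248 ± 30.7 CPM in CD24Neg (7.09-fold; edgeR adjusted p = 1.26e-07). The receptor Sqstm1 was 2.08-fold higher in CD24Neg (1.45e-05 for its edgeR adjusted p) and was not called on unscaled totals. Without CD24Neg replicates 2 and 8 the counts of called genes in each direction were the same for all 6 lists.

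**Figure D4:**
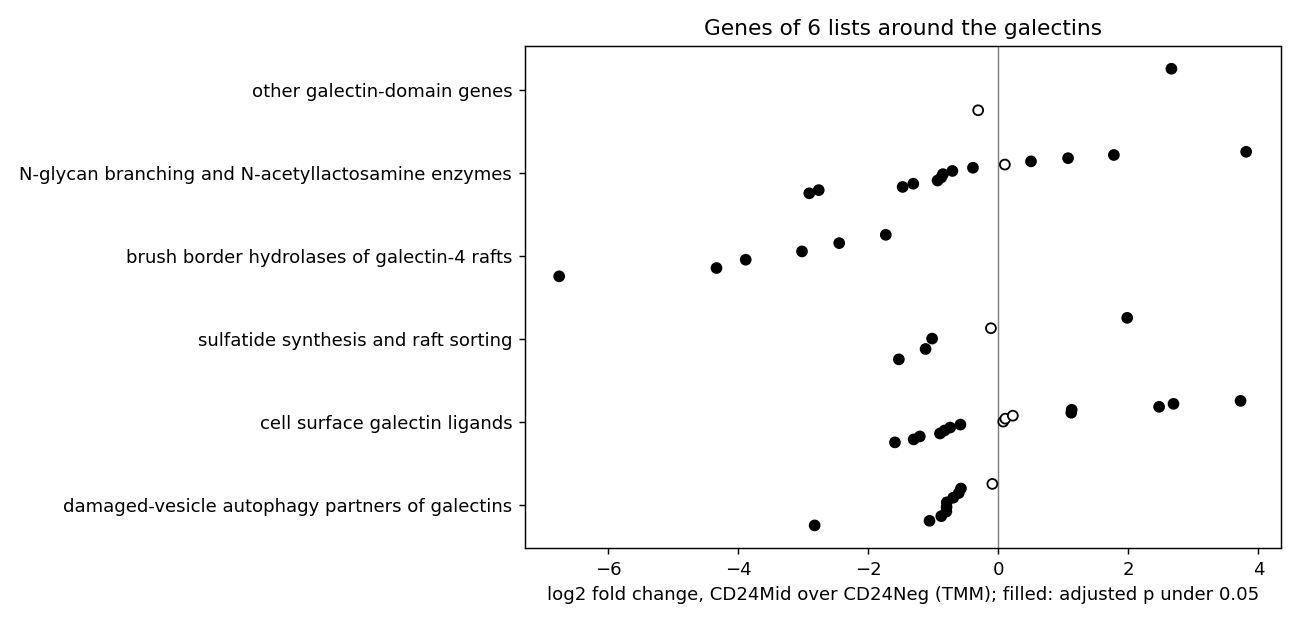
Each point is the log2 fold change (CD24Mid over CD24Neg, TMM) of 1 tested gene in 6 lists around the galectins; filled points had an edgeR adjusted p under 0.05 and open points did not. All 6 hydrolases lie left of 0 under every scaling, Lgals12 is the filled point of its list at 2.66, and all 10 autophagy partners lie left of 0 with TMM, 9 of them filled, against 1 called there on unscaled totals. The other 3 lists lie on both sides of 0.

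For each member, the tested genes with the most similar profile were found by the root mean square difference of log2 CPM over the 8 libraries, each gene centred on its mean, among 8904 genes. Nearest to Lgals4 were Zfyve21, Atg4d and Scrn2, at 0.0477, 0.0703 and 0.0724 log2 units. Nearest to Lgals3 were Ehbp1l1, Lipe and AA467197 (0.0895, 0.116 and 0.126), and nearest to Lgals2 were Mri1, Krt18 and Park7 (0.105, 0.109 and 0.113). Krt18 is a keratin of simple epithelia and Lipe is hormone-sensitive lipase. Nearest to Lgals8 were Rsrp1, Znfx1 and Abcb10 (0.0639, 0.0646 and 0.0693), to Lgals9 Dab2ip, Ap2a1 and Dpp3 (0.0593, 0.0606 and 0.0651), and to Lgals3bp Uqcrc2, Mfsd12 and Mrps34 (0.0599, 0.0814 and 0.0822). Lgals1 had no close match, with S100a16 at 0.169, Slc2a1 at 0.260 and Pglyrp1 at 0.285. These distances describe libraries that share one contrast and say nothing of shared function or control.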

How the data were processed

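Total RNA from sorted cells was made into TruSeq libraries, per the labels' protocols, and aligned with Bowtie 0.12.8 to NCBIM37, per the submitters' processing notes. The deposited tables give, per gene, a whole-number count of reads unique to it, without normalisation. The tables also hold an effective length and an expression estimate, whose base and unit the labels do not state. The deposited estimate was read as the natural log of an FPKM-like level (fragments per kilobase of effective length and mapped library), because this gives back the unique counts. The estimate shares out reads between genes by a model, so per-length levels rest on that reading. The sources used here give neither strand setting nor annotation release, so overlapping and antisense genes cannot be told apart.

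IDs were named through a later annotation (32897 of 37620 matched). The test on counts was the robust quasi-likelihood test of edgeR 4.0.16 (R 4.3.3) after filterByExpr and TMM scaling, with the group as its single term. P-values over 12840 genes were adjusted by Benjamini-Hochberg and called under 0.05. Fold changes give CD24Mid over CD24Neg, and the script was tested on simulated data. Permutation tests used SciPy 1.17.1. Alternatives were 3 other scalings, no filter, DESeq2 1.42.0, estimated counts (rounded), limma 3.58.1 on the estimate, no mitochondrial genes and leaving out each library. Counts carry counting error on top of replicate spread. The members and lists were chosen with earlier results of these data known. Genes of the lists are named where 6 or fewer of a list were called, and otherwise the 2 with the largest fold each way above a mean log2 CPM of 2; for each member the 3 nearest genes (mean log2 CPM from 3) are named. A planned comparison of Lgals6 with Lgals4 could not be run because no ID matched Lgals6. Positions and sequences are from GRCm38, not the build of the files, and were used only to show sequences.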

Additional observations from a re-analysis of the deposited data

Results flagged for a closer look

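Both results here are single libraries far from the other 3 of their group, found with Dixon's ratio (the gap to the nearest library over the range of the group, against its critical value for 4 libraries). Of 40 groups of values checked, 2 exceeded it, and chance alone gives about 1 in 20. Lgals3bp in CD24Mid had a ratio of 0.9372, because replicate 1 stood at 356 CPM and the other 3 at 262 to 268 CPM. The share of Lgals9 in the galectin sum in CD24Mid had a ratio of 0.8758, because replicate 7 stood at 9.88% and the other 3 at 6.60% to 7.01%. Neither gene was called between the groups. Leaving out CD24Mid replicate 1 gave Lgals3bp a log2 fold change of -0.21 and leaving out CD24Mid replicate 7 gave Lgals9 one of -0.18, both still not called.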

How the results depend on the processing

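Lgals2, Lgals3 and Lgals8 kept direction and call under every alternative run, and Lgals4 under all but 2 of them. Unscaled totals and limma on the deposited estimate, which apply no scaling between groups, put the median of all genes at 0.96 and 0.93 and gave 8959 and 8545 genes higher in CD24Mid (4557 with TMM) and 1659 and 1634 higher in CD24Neg (4410 with TMM). In the same order, Lgals4 lost its call (-0.24 and -0.30), Lgals1 gained one (1.29 and 1.46), and Lgals9 (0.79 and 0.77), Lgals3bp (0.86 and 0.63) and Epcam (0.86 and 0.84) turned positive. With upper-quartile scaling Lgals9 (0.073), Lgals3bp (0.14) and Epcam (0.14) turned without a call. Without the filter on low counts Lgals3bp (0.016) and Epcam (0.015) did so too, as did Epcam without CD24Neg replicate 6 (0.00048; -0.15 is its lowest on leaving out a library). Leaving out each library in turn gave log2 fold changes of 0.090 to 0.89 for Lgals1, 0.67 to 0.96 for Lgals2, -3.39 to -3.10 for Lgals3, -0.21 to -0.013 for Lgals3bp, -1.31 to -1.05 for Lgals4, -1.54 to -1.39 for Lgals8 and -0.20 to -0.065 for Lgals9, with 8544 to 8947 genes called (8967 with all 8), and changed no member's call. Without CD24Neg replicates 2 and 8, chosen after seeing the data, Lgals2 stood at 0.95, Lgals3 at -3.28, Lgals4 at -1.06 and Lgals8 at -1.52, while Ptprc (-0.073) lost its call. Ptprc also lost it with upper-quartile scaling, unscaled totals, limma and no filter, and on leaving out 5 of the 8 libraries singly (-1.75 to -0.97 in these 5 fits). No paired analysis was run, because the numbers in the titles are not shared between groups and no label pairs the libraries. The titles alternate between the groups, so the libraries may be paired, and the p-values here ignore any such pairing. The summed Lgals4 and Lgals6 alternative and the Lgals6 share were not run. Depth limits Lgals1, with 7 to 45 reads a library.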
